A study of Mus musculus with 19 samples.

Results

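Olfr701 is an olfactory receptor gene on mouse chromosome 7, and it was 1 of the 24537 genes in a table of RNA-seq counts from hepatocytes of 19 mice. It was chosen by its row in that table because its counts differed between young and old mice, so the age difference is given below as a description, with no test. The mice were male wild-type C57BL/6J animals, described as a single line, and their liver cells had been separated by stepwise perfusion. The labels give 10 young mice of 5 months and 9 old mice of 24 months, and no treatment. Mice were culled on 2 days, 23 days apart: 5 young and 5 old mice on the first, 5 young and 4 old on the second. Each age group had a single date of birth. Mice were therefore 140 or 719 days old on the first day and 163 or 742 on the second. Age cannot be told apart from birth cohort, nor cull day from these 23 days of age. Each mouse gave 1 library of polyadenylated RNA and is named by its number in the labels.

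Olfactory receptors are G protein-coupled receptors of the membrane of olfactory sensory neurons in the nose, where they bind odorants. A mature sensory neuron transcribes a single receptor gene out of a large family, and a bound receptor acts through the G protein subunit Gnal, the adenylate cyclase Adcy3 and a cyclic nucleotide-gated channel. The genes stand in clusters along the chromosomes, usually with an uninterrupted coding sequence in the last exon behind short untranslated exons, and transcripts of some of them are found in tissues outside the nose.

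In the table Olfr701 (NM_028910) lay on the plus strand at chr7:106814144-106820709 (mm10), with 3056 exon bases. GENCODE M21, on the matching GRCm38 build, gave 3 transcripts. Transcript Olfr701-201 had the same ends as the table row, with 5 exons and 3063 bases. The coding sequence, 948 bases at chr7:106818085-106819032, was in the last exon of each transcript, and the other exons were untranslated. No other gene of the table overlapped Olfr701. A long noncoding RNA gene of GENCODE on the minus strand, 4930458B22Rik at chr7:106809931-106814102, ended 26 bases before the Olfr701 gene began and was not analysed here.

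The 250 bases before the Olfr701 start in the RefSeq promoter table (GRCm38.p6, plus strand, chr7:106813879-106814128) are shown because they hold the start region of a gene that differed with age. All but the last 26 bases, and so each motif marked, also lie within the divergent noncoding gene. Capitals mark the motif matches described next.
Olfr701 promoter: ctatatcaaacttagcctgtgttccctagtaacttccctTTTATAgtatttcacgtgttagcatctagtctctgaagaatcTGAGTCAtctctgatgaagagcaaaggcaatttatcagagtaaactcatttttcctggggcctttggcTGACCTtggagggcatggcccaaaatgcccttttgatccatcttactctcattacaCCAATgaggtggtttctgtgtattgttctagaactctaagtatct
The searches covered both strands of the window from 250 bases before to 50 bases after the start, in each of 32851 promoters. A TATA box, TATAAA, matched on the minus strand 211 bases before the start, and 13.6% of all promoters held one. The AP-1 site TGAGTCA, which reads TGACTCA on the other strand and so gave 1 match for both forms, was 169 bases before the start, and 5.20% of promoters held it. The nuclear receptor recognition motif AGGTCA matched on the minus strand at 101 bases before the start (16.3% of promoters), and a CCAAT box at 45 bases before it (37.4%). There was no match to the interferon response element core, held by 3.44% of promoters, to the STAT palindrome TTCNNNGAA (8.30%), to the C/EBP site TTGCNNAA (10.8%), to the olfactory and early B cell factor site (0.904%), to the homeodomain site TAATTA (5.29%) or to the HNF1 palindrome (0.0609%).

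Olfr701 was near the detection limit in young hepatocytes and was counted in every old mouse. In the young mice of the first cull day, Olfr701 had 0 counts in mice 1180 and 1188, 1 in mouse 1186, 2 in mouse 1182 and 4 in mouse 1184. In those of the second cull day it had 0 counts in mice 1243 and 1244, 1 in mouse 1239, and 2 in each of mice 1235 and 1237. The young total was 12 counts, and 4 of 10 libraries had none. Old mice of the first cull day had 49.5 counts in mouse 1181, 29 in 1183, 62 in 1185, 42.5 in 1187 and 41.5 in 1189. Old mice of the second cull day had 60.5 counts in mouse 1236, 84.5 in 1238, 57.5 in 1240 and 24.5 in 1242, and the old total was 451.5 counts. The lowest old library therefore held more counts than all young libraries together, and the age groups did not overlap. Counts over genes overlapped between the groups, at 17381439 to 19583060 in the young and 18156240 to 20287628 in the old libraries. The totals given in the column names did not overlap, at 21038999 to 22893387 in the young and 23177456 to 23781337 in the old, so each old library was the deeper one on that measure.

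In counts per 1000000 of a library size scaled by TMM (CPM), Olfr701 was at 0 at the lowest, 0.0554 at the median and 0.219 at the highest of the young libraries, with a mean of 0.0670 ± 0.0729 (SD, n = 10). In the old libraries it was at 1.29 at the lowest, 2.54 at the median and 4.11 at the highest, with a mean of 2.53 ± 0.917 (SD, n = 9). A count of 0 allows up to 3 counts, or 0.147 to 0.165 CPM in the 4 libraries at 0, so a low level in the young mice without counts was not detectable at this depth. The counts pooled by age, per count in genes, differed 39.8-fold, with a 95% interval of 22.5 to 77.5 that covers counting error only. The edgeR log2 fold change, old over young with cull day in the fit, was 5.13 (SE 0.419). It was 4.97 to 5.55 with each mouse left out in turn. All old libraries stood above all young ones, which also held for 0.978% of the 12269 genes that passed the filter on low counts, 120 genes in all. Since Olfr701 was chosen for this contrast, nothing is read from that share. In such bulk samples, more cells with the transcript and more RNA per cell cannot be told apart.

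**Figure D1:**
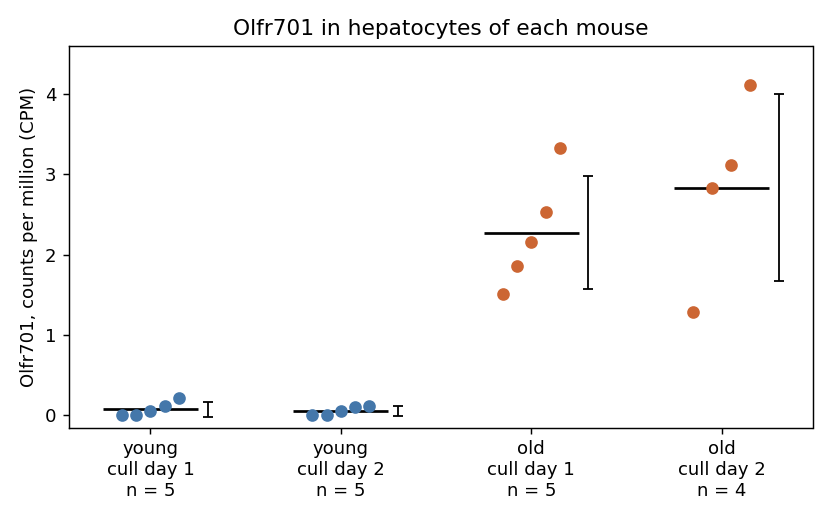
Olfr701 in CPM (vertical axis) for each mouse, by age and cull day; points are mice, and the bars give the mean and SD of each group. Young mice lie between 0 and 0.219 CPM on both cull days and old mice between 1.29 and 4.11 CPM.

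The level was alike on the 2 cull days. Ordered by mean, it was 0.0567 ± 0.0572 CPM in young mice of the second day (SD, n = 5), 0.0773 ± 0.0917 in young mice of the first day (n = 5), 2.28 ± 0.698 in old mice of the first day (n = 5) and 2.84 ± 1.17 in old mice of the second day (n = 4). Within each age, the days differed by less than the SD of either day. The log2 fold change with age was 4.78 (SE 0.594) within the first day and 5.54 (SE 0.545) within the second. The difference between the days in the age effect was 0.75 on the log2 scale (SE 1.00, adjusted p = 0.941 by edgeR's quasi-likelihood test with Benjamini-Hochberg adjustment, used throughout). The cull day difference itself was 0.18 (SE 0.381, edgeR adjusted p = 0.780), and 12.3% of genes passed that test. With an SE of 1.00, an age effect of about the same size on both days and one that differed severalfold cannot be told apart.

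Among the old mice the lowest level was that of mouse 1242, with 24.5 counts (exact 95% Poisson interval 15.8 to 36.3, counting error only), and the highest that of mouse 1238, with 84.5 (67.4 to 105). The coefficient of variation over the 9 old mice was 36.3%. Both the lowest and the highest mouse came from the second cull day.

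The old preparations differed in markers of other liver cells, and those markers were set against Olfr701. Alb, the albumin gene of hepatocytes, was the most counted gene in 19 of 19 libraries. Of the 14 macrophage markers, 12 were higher in old mice in the edgeR age test and none lower, where 30.9% of all tested genes changed and 16.3% were higher. The summed macrophage level was 156 to 732 CPM in young and 92.9 to 3766 CPM in old libraries, so the ranges overlapped. Of the 14 endothelial markers 11 were higher, with sums of 212 to 388 CPM in young and 231 to 723 CPM in old libraries. Of the 14 stellate markers 14 were higher, with sums of 54.1 to 151 CPM and 156 to 591 CPM, which did not overlap. Scores, the mean log2 CPM of a list, were also compared from mouse to mouse. Old mouse 1183 had the lowest macrophage, endothelial, stellate and interferon scores of the old mice. Its macrophage score was 2.08, beside a young mean of 3.72 ± 0.797 (SD, n = 10), and its endothelial score 3.68, beside 3.97 ± 0.328. Its stellate score of 2.45 was above the young mean of 1.90 ± 0.509. Its interferon score of 3.00 was near the young mean of 2.99 ± 0.310. Mouse 1183 had 1.51 CPM of Olfr701, the lowest old value but for the 1.29 CPM of mouse 1242, and above all young mice. Old mouse 1187 had the highest macrophage, endothelial, stellate and interferon scores, and had 1.85 CPM of Olfr701, also below the old median. The part of other liver cells in the Olfr701 difference was not tested.

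Within the 9 old mice, 8 relations of the Olfr701 level were computed: with the macrophage, endothelial, stellate, type 1 interferon, female-biased liver, male-biased liver and lipid droplet scores, and with the total count. Pearson's r ran from -0.16, for the endothelial score, to 0.44, for the total count. Spearman's rho ran from -0.32 to 0.50. None of the 8 passed an exact two-sided permutation test, with a smallest p of 0.241 for r and 0.178 for rho, and smallest adjusted p of 0.938 and 0.631. With the 2 mice farthest from the median of each score left out, r over 7 mice was -0.76 for macrophage, -0.68 for endothelial, -0.34 for stellate, 0.15 for interferon, -0.45 for female-biased, 0.23 for male-biased, 0.63 for lipid droplet and 0.32 for the total count. The cull days held 5 and 4 old mice, too few for a value within each day. With the cull day means removed, a setting chosen after the data were seen, r ran from -0.22 for the endothelial score to 0.43 for the total count (exact permutation within days, smallest adjusted p = 0.987).

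The genes beside Olfr701 belong to the same receptor cluster. Within 200 kb of its ends the table held 19 other genes, of which 18 were olfactory receptor genes and the other was the predicted gene Gm1966. Of these, 3 lay on the plus strand like Olfr701 and 16 on the minus strand. No library had a read in 13 of them: Olfr693, Olfr694, Olfr695, Olfr697, Olfr704, Olfr705, Olfr706, Olfr707, Olfr1532-ps1, Olfr710, Olfr6, Olfr711 and Olfr2. The 6 with reads all had a higher total in old mice than in young, though Olfr699 and Olfr700 had only 1 count each. The share of all genes with a higher old total was not computed. In 2 of the 19, Olfr702 and Olfr703, every old library stood above every young one. The share of such genes was 0.811% of the 18492 genes with a read.

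Olfr702, a receptor gene on the opposite strand, was the nearest table gene, at chr7:106823489-106826743 and 2779 bases past the end of Olfr701. The GENCODE gene models of the pair were 2016 bases apart. In old mice of the first cull day it had 9 counts in mouse 1181, 9.5 in 1183, 10 in 1185, 14.5 in 1187 and 8.5 in 1189, and on the second day 24.5 in 1236, 25 in 1238, 21.5 in 1240 and 17 in 1242. Young mice had 0 to 2 counts, 4 in all. The age groups did not overlap, and the old mice of the second day all lay above those of the first. Its mean was 0.0219 CPM in young and 0.778 ± 0.334 CPM in old mice (SD, n = 9). Olfr702 did not pass the filter on low counts. In the edgeR fit without that filter its log2 fold change was 4.73 (SE 0.474, adjusted p = 4.71e-06), where 13.3% of 17806 genes were higher in old mice. Within the days it was 3.69 (adjusted p = 0.0318) and 5.99 (adjusted p = 5.13e-05) by edgeR. The difference between the days was 2.27 (SE 1.11, edgeR adjusted p = 0.856). With each mouse left out the log2 fold change was 4.55 to 5.43, the highest without young mouse 1188, which held 2 of the 4 young counts.

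Olfr703, a receptor gene on the same strand as Olfr701, began 23903 bases past its end, at chr7:106844613-106845572. In old mice of the first cull day it had 8, 6, 9, 4 and 1.5 counts in mice 1181, 1183, 1185, 1187 and 1189, and on the second day 7, 14.5, 6 and 3.5 in mice 1236, 1238, 1240 and 1242. Young mice had 1 count in all, in mouse 1180. Each old library was above all young ones, though counts were few. The old mean was 0.334 ± 0.188 CPM (SD, n = 9), and the edgeR log2 fold change without the filter was 4.82 (SE 0.564, adjusted p = 2.13e-05). It was 5.73 without young mouse 1180, but the young mice then had 0 counts, so the data do not fix its size. The gene passed with each mouse left out (largest edgeR adjusted p = 0.000355).

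Olfr698, a receptor gene on the opposite strand, lay 60757 bases before Olfr701, at chr7:106752451-106753386. It had 14 of its 35 old counts in mouse 1183, and 0.5 to 6 in the other old mice. Young mice had 1 count in all, and 5 of 9 old libraries stood above every young one. The edgeR log2 fold change without the filter was 4.02 (SE 0.819, adjusted p = 0.00207). It was 3.44 without old mouse 1183 and 4.90 without young mouse 1244. In the latter case the young mice had 0 counts, so the data do not fix the size of that value. The gene passed with each mouse left out (largest edgeR adjusted p = 0.0104). Within the first cull day alone the adjusted p was 0.138. Of the receptor genes with at most 1 count in all, Olfr699 had 0.5 counts in each of 2 old mice, and Olfr700, whose end was 7683 bases before Olfr701, had 1 count in old mouse 1183. Thus the receptor gene nearest to the Olfr701 start was hardly counted, while receptor genes farther off on both sides were.

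Gm1966, on the opposite strand at chr7:106595549-106644645, was the only gene of the 19 that passed the filter. It had 4 to 45.5 counts in young libraries, with a median of 13, and 2 to 248.5 in old ones, with a median of 32. The groups overlapped, and the highest value was that of old mouse 1187, the mouse with the highest macrophage score. Its log2 fold change of 1.27 (SE 0.522) did not pass the edgeR test (adjusted p = 0.0716), while it passed by DESeq2 (adjusted p = 0.0448). Without mouse 1187 it was 0.61 (adjusted p = 0.317 by edgeR), without old mouse 1183 it was 1.43 (adjusted p = 0.0185), and without young mouse 1235 it was 1.48 (adjusted p = 0.0456). The part of other liver cells in the Gm1966 value was not tested.

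**Figure D2:**
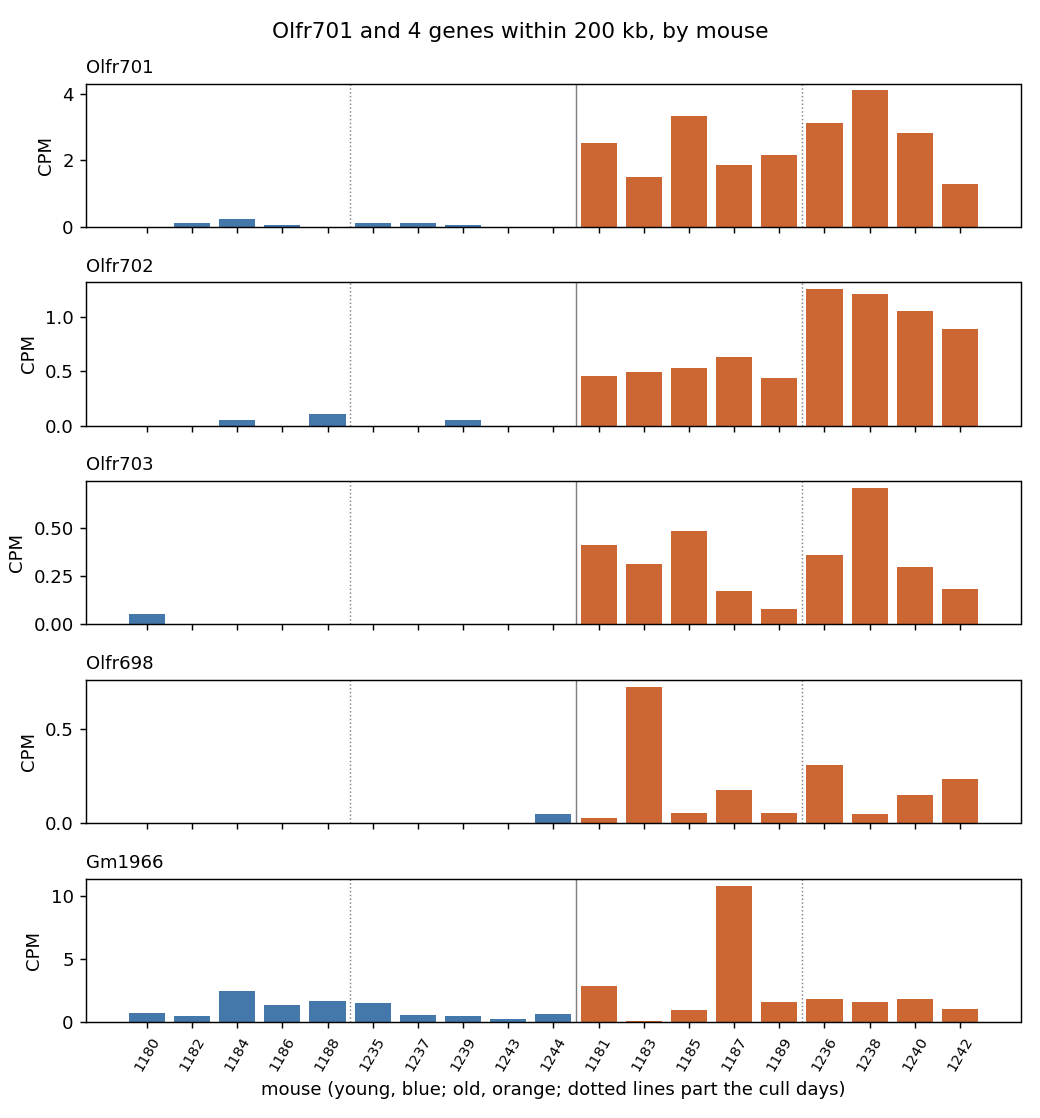
CPM (vertical axes, each with its own scale) of Olfr701 and of 4 genes within 200 kb, by mouse (horizontal axis); bars are single libraries, young in blue and old in orange. Olfr702 and Olfr703 are above all young mice in each of the 9 old mice, while Gm1966 is led by old mouse 1187 at 10.8 CPM.

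Per kilobase of exon, the mean level in old mice was 0.827 CPM for Olfr701, 0.579 for Olfr702, 0.348 for Olfr703, 0.281 for Gm1966 and 0.211 for Olfr698. Without mouse 1187 Gm1966 was at 0.164, and without mouse 1183 Olfr698 was at 0.140, so both levels depend on single mice. With the highest old library of each gene left out, the order of these genes was the same. Olfr701 was the highest of the window on this length-corrected scale, also with the highest old library of each gene left out (0.762 for Olfr701). On the plus strand, the nearest table gene before Olfr701 was Gm15645, which ended 951 kb away and had 2 counts over all 19 libraries. Transcription running into Olfr701 from before it, or out of it into the genes past its end, was not tested. The files hold counts in exons alone, so reads between genes were not analysed here.

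**Figure D3:**
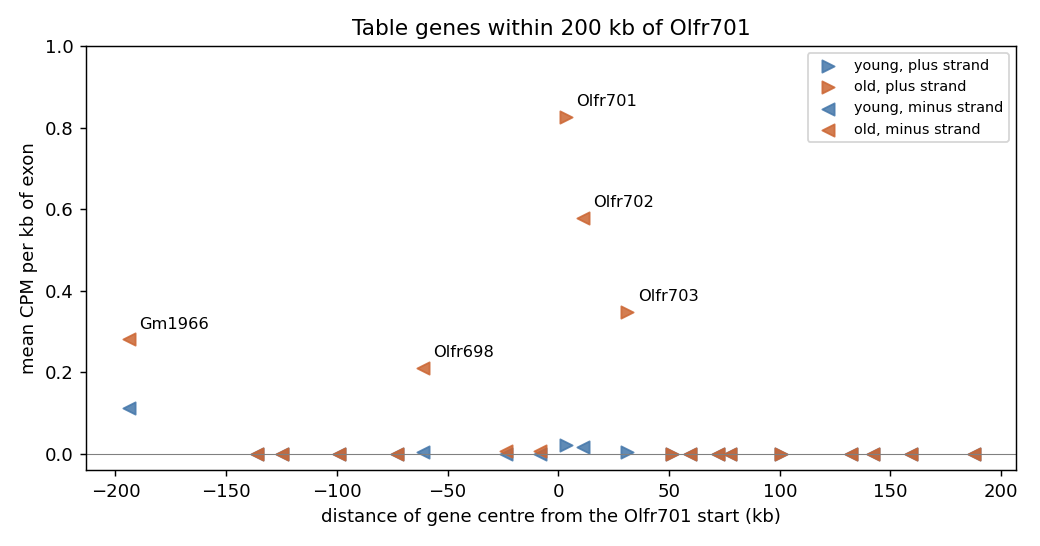
Mean CPM per kilobase of exon (vertical axis) of the table genes within 200 kb, by the distance of the gene centre from the Olfr701 start in kilobases (horizontal axis), in young and old mice. Olfr701, at 0.827 in old mice, stands between Olfr698, at 0.211, and Olfr702 and Olfr703, at 0.579 and 0.348. Olfr699 and Olfr700, between Olfr698 and Olfr701, are at 0.00615 and 0.00608. The genes without reads lie outside the stretch from Olfr698 to Olfr703.

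The reads of the 19 neighbours were also summed, here per 1000000 counts in genes without TMM scaling. Young mice had a sum of 1.03 ± 0.728 CPM (SD, n = 10) and the old 4.04 ± 3.71 CPM (SD, n = 9), a mean within-day difference of 2.94 CPM (exact two-sided permutation test within cull days, p = 0.000409). With TMM-scaled library sizes the difference was 2.74 CPM (exact permutation p = 0.000441), and without old mouse 1187 it was 1.81 CPM (exact permutation p = 0.000756). Without Gm1966, a setting chosen after the data were seen, the sum was 0.0321 ± 0.0379 CPM in young and 1.35 ± 0.50 CPM in the old, a difference of 1.35 CPM (exact permutation p = 3.15e-05, the smallest this design can give). The ranges of this second sum, 0 to 0.110 CPM and 0.542 to 2.03 CPM, did not overlap. In the old mice the relation of single neighbours to Olfr701 was examined as well, a family of 4 relations chosen after the data were seen. Olfr703 had r = 0.67 (exact permutation p = 0.0471, adjusted p = 0.188) and rho = 0.73 (exact p = 0.0311, adjusted p = 0.124), while Olfr702 had r = 0.36 (exact p = 0.332), Gm1966 0.20 (exact p = 0.621) and Olfr698 -0.53 (exact p = 0.141). Without the 2 farthest mice of each, r was 0.72 for Olfr703, -0.12 for Olfr702, 0.24 for Gm1966 and -0.41 for Olfr698, so the Olfr702 value rested on those mice. With the cull day means removed, r was 0.65 for Olfr703, 0.46 for Olfr702, 0.21 for Gm1966 and -0.58 for Olfr698, with a smallest adjusted p of 0.153 (exact permutation within days). No relation passed after adjustment.

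Receptor genes of a cluster resemble one another, so reads of one could be counted in another. The next sequences show, for the 3 receptor neighbours that changed with age, the 100-base stretch of the Olfr701 coding sequence to which each came closest (GENCODE M21 transcripts, GRCm38). Capitals mark the bases at which the neighbour differs.
Olfr701 chr7:106818398-106818497: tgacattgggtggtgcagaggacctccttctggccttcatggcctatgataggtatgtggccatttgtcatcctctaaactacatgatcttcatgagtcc
Olfr703: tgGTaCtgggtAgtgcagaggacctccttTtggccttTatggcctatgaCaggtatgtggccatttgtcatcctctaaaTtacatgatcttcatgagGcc
Olfr701 chr7:106818111-106818210: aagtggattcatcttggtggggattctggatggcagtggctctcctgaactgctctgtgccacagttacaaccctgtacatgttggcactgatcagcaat
Olfr698: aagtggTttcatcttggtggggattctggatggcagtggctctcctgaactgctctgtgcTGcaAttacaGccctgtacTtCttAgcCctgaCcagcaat
Olfr701 chr7:106818888-106818987: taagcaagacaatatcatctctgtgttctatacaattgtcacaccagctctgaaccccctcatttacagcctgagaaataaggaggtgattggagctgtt
Olfr702: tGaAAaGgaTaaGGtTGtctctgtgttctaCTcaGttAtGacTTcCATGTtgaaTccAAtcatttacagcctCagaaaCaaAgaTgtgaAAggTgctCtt
Olfr703 differed by 9 and Olfr698 by 10 of 100 bases in these stretches, and Olfr702, the receptor neighbour with the most counts, by 32. Over the aligned coding sequence the identity to Olfr701 was 81.2% for Olfr703, 83.2% for Olfr698 and 71.7% for Olfr702. The longest run of identical bases was 47 for Olfr703, 53 for Olfr698 and 13 for Olfr702, against reads of 100 bases. Of 1403 receptor genes compared, the closest was Olfr706, with 4 mismatches in 100 bases and 86.8% coding identity, and it had no read in any library. Olfr693 and Olfr694, with 6 mismatches, and Olfr704 and Olfr705, with 7, had none either. Olfr703 and Olfr698, which had counts, were among the 9 closest by mismatches. Whether reads of one receptor gene were counted in another was not tested.

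Of the 3033 words of 31 bases in transcript Olfr701-201, 95 (3.13%) were found in transcripts of 9 other genes. All 95 touched the coding sequence. None was shared with Olfr702, 17 were shared with Olfr703 and 28 with Olfr698. The authors' handling of reads with several matches is not given in the sources used here, and the whole genome was not searched, so the counts of these receptor genes remain uncertain to that extent.

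**Figure D4:**
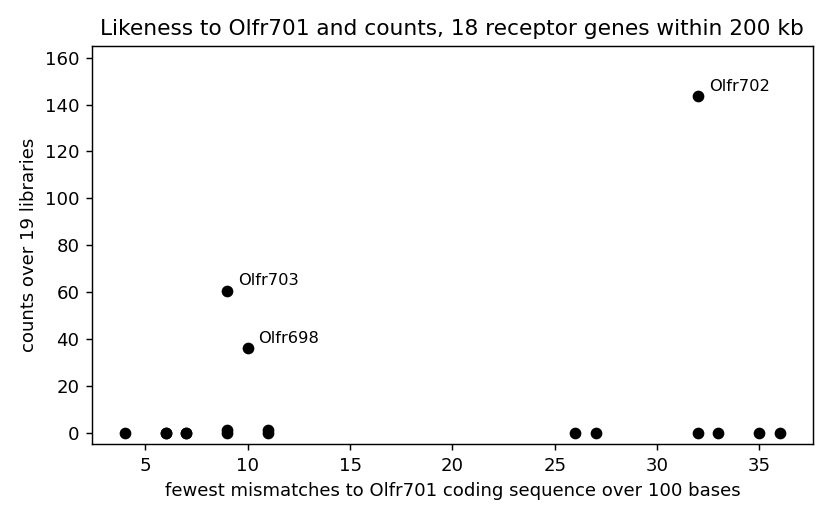
Counts summed over 19 libraries (vertical axis) against the fewest mismatches to the Olfr701 coding sequence over 100 bases (horizontal axis) for the 18 receptor genes within 200 kb; each point is a gene. The gene with 4 mismatches, Olfr706, has no counts, and Olfr702, with 32 mismatches, has the most.

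The other olfactory receptor genes of the table were mostly silent in these libraries. Of 1125 in the table, 53 had a read and 1072 had none, and 31 of the 53 had fewer than 3 counts over all libraries. Per kilobase of exon, Olfr701 held rank 4 of the 53 in old mice, at 0.827 CPM, and rank 10 in young mice, at 0.0219 CPM, where its 12 counts fix no order among the low genes. The 3 above it in both age groups were Olfr1033, Olfr56 and Olfr1034. Olfr1033 had 4.33 ± 0.997 CPM at 5 months (SD, n = 10) and 5.70 ± 1.53 CPM at 24 months (SD, n = 9). Olfr1033 (log2 fold change 0.40, edgeR adjusted p = 0.0641) did not pass the age test. Olfr56, at 2.43 CPM in young and 3.60 CPM in old mice, did not pass either (0.63, edgeR adjusted p = 0.0683), and its value is uncertain because it overlaps Olfr1396, Tgtp2 and Ifi47 in the table. Olfr1034 was higher in old mice, at 1.58 ± 0.647 against 0.949 ± 0.304 CPM (log2 fold change 0.71, SE 0.224, edgeR adjusted p = 0.0224).

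Thus 1 of the 3 other receptor genes that passed the filter was called, near the background of 30.9% of all tested genes. None of these 3 differed by more than 0.71 on the log2 scale, beside 5.13 for Olfr701, but all had means of at least 0.949 CPM in young mice. Among receptor genes that did not pass the filter, log2 fold changes without it were larger. They reached 4.82 for Olfr703, 4.73 for Olfr702, 4.02 for Olfr698, 3.65 for Olfr1029 and 3.60 for Olfr1030. By the mean over all mice, which mixes the age groups, the other receptor genes named by rule were Olfr702 and the pseudogene Olfr1372-ps1. The latter, at 0.154 CPM in young and 0.304 CPM in old mice, had a log2 fold change of 1.00 in the edgeR fit without the filter (adjusted p = 0.174). In that fit 7 of 32 receptor genes other than Olfr701 were higher in old mice and 0 lower, where 13.3% of all genes were higher; 10 had an unadjusted p under 0.05. The 7 were 3 neighbours of Olfr701, namely Olfr698, Olfr702 and Olfr703, and 4 genes of 1 stretch of chromosome 2.

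**Figure D5:**
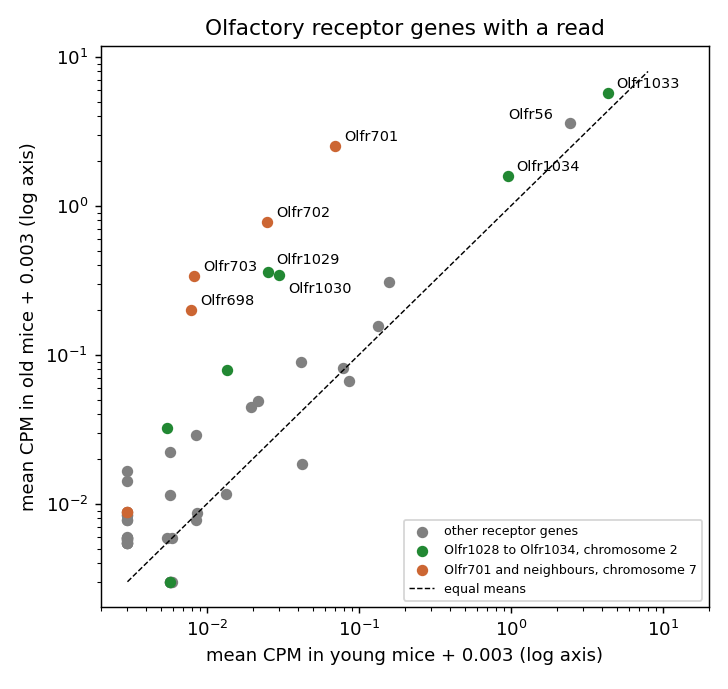
Mean CPM in old mice (vertical, log axis) against mean CPM in young mice (horizontal, log axis), each with 0.003 added, for the olfactory receptor genes with a read; the dashed line marks equal means. Olfr701, at 0.0670 and 2.53 CPM, and its neighbours Olfr702, Olfr703 and Olfr698 stand far above the line. So do Olfr1029 and Olfr1030 of chromosome 2, while Olfr1033, Olfr56 and Olfr1034 lie close to it.

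Genes of the olfactory neuron were examined next to Olfr701. Stoml3, a membrane protein of olfactory cilia, and Cnga2, the channel subunit that carries the odour response, had 0 counts in every library. Rtp1, which brings receptors to the cell surface, had 2 counts in young and 0 in old mice, its relative Rtp2 0 and 1, and the channel subunit Cnga4 5 and 2.5. Gng8, a G protein subunit of immature sensory neurons, had 0 and 1.5 counts. Omp, the olfactory marker protein, had 26.5 counts over the young and 63.5 over the old libraries, with 0 to 10 in a young library and 2.5 to 13.5 in an old one. The groups overlapped, and in the edgeR fit without the filter its log2 fold change of 1.25 (SE 0.566) did not pass (adjusted p = 0.111). Ano2, a chloride channel of olfactory cilia, had 6 counts in young and 17.5 in old mice and did not pass either (1.52, SE 0.727, edgeR adjusted p = 0.132). Of the 10 markers, Stoml3 and Cnga2 were at 0 throughout, Rtp1, Rtp2, Cnga4 and Gng8 had at most 2 counts in a library, and Omp and Ano2 were counted at low levels. Their part in the Olfr701 difference was not tested. The summed level of the 10 markers, 2.84 to 6.29 CPM in young and 5.18 to 11.4 CPM in old libraries, came mostly from Gnal and Adcy3, which many tissues express.

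Of the 21 genes listed for receptor signalling and trafficking, 10 passed the filter, of which 4 were higher in old mice and 1 lower, where 30.9% of all tested genes changed. Gnal, the G protein subunit to which the receptors couple, was at 4.06 ± 0.946 CPM in the young (SD, n = 10), at 4.99 ± 0.815 CPM in the old (SD, n = 9) and did not pass (log2 fold change 0.30, edgeR adjusted p = 0.108). Adcy3 was higher, from 0.453 ± 0.196 (SD, n = 10) to 1.17 ± 1.33 CPM (SD, n = 9), by 1.32 (SE 0.445, edgeR adjusted p = 0.0313). Old mouse 1187 held 106 of its 220.5 old counts, and without that mouse Adcy3 did not pass (0.68, edgeR adjusted p = 0.0978). Grk3, the kinase that desensitises bound receptors, was higher by 1.43 (adjusted p = 0.000703), and the arrestin Arrb2 by 0.83 (adjusted p = 0.0129). The sodium-calcium exchanger Slc8a1 was higher by 1.83 (edgeR adjusted p = 0.0173), from 0.815 ± 0.601 to 3.09 ± 5.02 CPM, with 374.5 of its 598.5 old counts in mouse 1187. Without that mouse Slc8a1 did not pass (0.90, edgeR adjusted p = 0.0940). Grk3, at 1.17, and Arrb2, at 0.49, still passed without it. The chloride cotransporter Slc12a2 fell by 0.46 (adjusted p = 0.00227). Each of these also has roles outside the nose.

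Of the 18 genes listed for the choice of the receptor gene to be transcribed, 13 passed the filter. Lhx2, a homeodomain factor that binds receptor gene enhancers, was higher in old mice by 1.44 on the log2 scale (SE 0.333, edgeR adjusted p = 0.00424), from 0.554 to 1.46 CPM. Its partner Ldb1 was higher by 0.24 (edgeR adjusted p = 0.0303). Adcy3, which stands in both lists, was the third. The histone methyltransferase Ehmt1 fell by 0.24 (edgeR adjusted p = 0.0325). Emx2 and Ebf2, other factors of receptor gene transcription, had 0 counts in every library. Over both lists 8 of 22 tested genes changed, where 30.9% of all tested genes did, so the share was near the background. Without old mouse 1187, the one with the highest marker scores of other liver cells, 4 were called (Grk3, Arrb2, Slc12a2 and Lhx2), and without young mouse 1180 there were 5. Adcy3 and Ldb1 each lost the call without any of 5 single mice, and Ehmt1 without any of 7. The part of other liver cells in these calls was not tested.

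The genes whose pattern over the 19 libraries was most like that of Olfr701 were ranked by Pearson's r of log2 CPM among the 12268 other genes that passed the filter. They were Dmrta1 (r = 0.94), Hsf2bp (0.93), Noct (0.92), Cyfip2 (0.91) and Ephb6 (0.91), and 7 genes in all had r above 0.9, beside a median of -0.02. Each was higher in old mice, for instance Dmrta1, from 0.577 ± 0.244 (SD, n = 10) to 4.06 ± 0.790 CPM (SD, n = 9), and Noct, a deadenylase-like protein with a daily rhythm in liver, from 12.1 to 83.5 CPM. Measured in the same way, Olfr702 had r = 0.93, Olfr703 0.92, Olfr698 0.60 and Gm1966 0.39. Within the 9 old mice, after removing the cull day means, r of the same 5 genes was 0.56, 0.24, -0.02, -0.11 and 0.38. The highest within the old mice were other genes, Kansl1 (0.96), Cnot6 (0.96), Nfic (0.94), Ugt2b38 (0.94) and F420014N23Rik (0.93). These values describe the libraries, which share the age groups and the scaling of each library, and carry no test.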

How the data were processed

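Hepatocyte RNA of 19 mice was sequenced from stranded paired-end libraries of 100-base reads, per the labels' protocols. The authors deposited 1 table of estimated counts per gene, raw and not normalized. Reads were aligned with STAR and counted with HOMER on GRCm38 (mm10), per the submitters' processing notes, and HOMER counted exons of RefSeq transcripts and condensed them to genes, per the file headers. Versions, the strand setting and the handling of reads with several matches are not given in the sources used here. Values were multiples of 0.5, with 29.2% not whole, and were rounded before the count tests, which had been planned for plain counts. The genes held 78.3% to 86.5% of the total in each column name.

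Age was fitted with cull day on all genes by edgeR 4.0.16 (R 4.3.3), quasi-likelihood test, TMM scaling, filterByExpr by age (minimum count 10) and Benjamini-Hochberg adjustment at 0.05. Where a gene did not pass the filter, the fit of all genes without it was used. On simulated counts the fit was tested first. DESeq2 1.42.0, other scalings, filters, windows, single cull days and each mouse left out were alternatives. Scores are mean log2 CPM with a prior count of 2. CPM is counts per 1000000 of the TMM-scaled library size, 94.5% to 116% of the counts in genes, except that the summed neighbours use the counts in genes unscaled. Sequences were searched in Python 3.11.15 with Biopython 1.88. Where nothing says otherwise, each library is taken as 1 mouse, and p-values measure the spread between these libraries.

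Named genes were Olfr701, all neighbours within 200 kb, the 5 other receptor genes of the highest mean and any passing the age test, list genes passing it, and the 5 genes most like Olfr701 over all libraries and over the old mice. The gene and the lists were chosen with earlier results of these data known.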

Additional observations from a re-analysis of the deposited data

Results flagged for a closer look

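A single value stood apart in 10 of the 26 groups of values examined, by the gap to its nearest neighbour over the range of the group, a criterion that chance meets in about 1 in 20 groups. Many are groups of near-0 counts, in which 1 read sets the range. Among young mice these were Olfr701 in mouse 1184 at 0.219 CPM (next 0.117), Olfr702 in mouse 1188 at 0.110 CPM (next 0.0551), Olfr698 in mouse 1244 at 0.0490 CPM and Olfr703 in mouse 1180 at 0.0527 CPM, the last pair with 0 in all other young mice.

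Among old mice, mouse 1183 stood apart for Olfr698 at 0.727 CPM (next 0.309), for Olfr700 at 0.0520 CPM (0 in the others) and for Olfr1029, a receptor gene of chromosome 2, at 0.935 CPM (next 0.510). Old mouse 1187 stood apart for Gm1966 at 10.8 CPM (next 2.87), for the summed neighbours at 13.7 CPM without TMM scaling (next 3.84) and for Olfr56 at 8.51 CPM (next 4.75). No old mouse stood apart for Olfr701 itself.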

How the results depend on the processing

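The Olfr701 log2 fold change kept its direction and stayed between 4.97 and 5.55 with each mouse left out. No paired analysis was possible because mouse numbers are not shared between ages. The age by cull day difference ran from -0.0518 to 1.14 with each mouse left out, turning sign without young mouse 1184, and the cull day difference from -0.0234 to 0.35, turning sign without old mouse 1238. Within old mice, r with each mouse left out ran from -0.60 to 0.20 for macrophage, -0.66 to 0.0777 for endothelial, -0.40 to 0.36 for stellate, -0.29 to 0.47 for interferon, -0.30 to 0.13 for female-biased and -0.0152 to 0.34 for lipid droplet scores, and the interferon value was 0.0047 with a median over genes and the female-biased value 0.0489 with cull day means removed. For the male-biased score r ran from 0.10 to 0.43, and for the total count from 0.15 to 0.53, with no change of sign. The cause of these shifts was not tested.

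Of all genes, 3785 were called, against 450 in the first and 2389 in the second cull day alone, with fewer mice. Scaling by library totals gave 2098 genes higher and 1169 lower, against 2005 and 1780. Of the neighbours 0 were called with the filter (1 with an unadjusted p under 0.05), 3 without it and 1 (Gm1966) by DESeq2. In the second day alone 1 was called (Olfr702, not Gm1966), and 0 to 1 with each mouse left out. Of the other receptor genes 1 was called, against 7 without the filter, 0 in the first day, 4 in the second and 1 to 3 with each mouse left out (3 without young mouse 1184, and 2 without old mouse 1183, 1187 or 1189). Of the olfactory list genes 8 were called, against 2 in the first day, 3 in the second and 4 to 9 with each mouse left out. Low counts limit the young values of Olfr701 and all values of Olfr698 and Olfr703.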

Other observations

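In a second group of neighbouring receptor genes, 4 of 7 were higher in old mice. On chromosome 2, within chr2:85951065-86047466 (mm10), the table held 7 receptor genes, Olfr1028 to Olfr1034, all on the plus strand, and all 7 had reads. In the edgeR fit without a filter on low counts, Olfr1029 was higher in old mice by 3.65 on the log2 scale (SE 0.648, adjusted p = 0.000683) and Olfr1030 by 3.60 (SE 0.539, adjusted p = 0.000176). For each of them 9 of 9 old libraries stood above all young ones. Olfr1028 was higher by 2.26 (edgeR adjusted p = 0.0438) and Olfr1034 by 0.68 (edgeR adjusted p = 0.0348). The other members did not pass: Olfr1031 had a log2 fold change of 2.36 (edgeR adjusted p = 0.0775) and Olfr1033 of 0.37 (edgeR adjusted p = 0.0903), and Olfr1032 had its only 0.5 counts in a young mouse. In that fit, 13.3% of all genes were higher in old mice. Olfr1029 was at 0.0221 ± 0.0310 CPM in the young (SD, n = 10) against 0.359 ± 0.263 CPM in the old (SD, n = 9), and Olfr1030 at 0.0270 ± 0.0253 and 0.342 ± 0.187 CPM, well under the 2.53 CPM of Olfr701. This stretch was singled out after its values were seen.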
